A study of Saccharomyces cerevisiae and Schizosaccharomyces pombe with 8 samples.

Results

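Fission yeast, Schizosaccharomyces pombe, adjusts a small set of genes to the zinc it can take up, and 4 RNAs of that set are described here. They are adh1, its antisense RNA adh1AS, adh4 and zrt1, 4 of the 12606 annotated nuclear genes. The rule names them and uses no measured value, with both strands read over each gene and 500 nt past its end. The study counted the 3' ends of polyadenylated RNA in fission and budding yeast. The S. pombe data are 4 libraries, 1 per group. Wild type was grown in each of 2 media, rich and minimal, a PAB2 mutant in rich and a PCF11 mutant in minimal medium only. Submitters' labels give neither the media recipes nor the mutations, and they say nothing of the zinc in either medium.

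Zrt1 is the plasma membrane transporter of the ZIP family that brings zinc into the cell. Adh1 is the main fermentative alcohol dehydrogenase and needs zinc as its cofactor, whereas Adh4 is an alcohol dehydrogenase known to be made when zinc is scarce. In zinc-replete fission yeast the zinc-finger repressor Loz1 keeps zrt1, adh4 and adh1AS off. When zinc runs low adh1AS is transcribed across adh1 from the opposite strand, and this is known to lower adh1. Pab2, the nuclear poly(A)-binding protein, works with the nuclear exosome in RNA decay, and Pcf11 is a subunit of the cleavage and polyadenylation machinery that also acts in transcription termination.

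On the ASM294v2 assembly adh1 (SPCC13B11.01) lies on the plus strand at III:1591292-1592889, with a coding region at III:1591359-1592411 and a 3' untranslated region of 478 nt. The long noncoding RNA adh1AS (SPNCRNA.1710) lies on the minus strand at III:1590025-1593983 and covers the whole of adh1. Its 3959 nt begin 1094 nt downstream of the end of adh1. A coding gene of no named function, SPCC13B11.02C, is annotated inside this first stretch on the same strand, at III:1593402-1593818, and its model has no untranslated regions. Reads past its end were counted here with adh1AS, although they may belong to either RNA. The gene adh4 (SPAC5H10.06C) is on the minus strand at I:156430-157932, with a 3' untranslated region of 118 nt. The gene zrt1 (SPBC16D10.06) is on the plus strand at II:3607177-3609330, with 713 nt of 5' and 214 nt of 3' untranslated region.

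The DNA recognition sequence of Loz1 was looked for as CGNAGATC or CGNCGATC on both strands, since 3 of the RNAs are known Loz1 targets. It stood once in the 1000 nt before the annotated start of adh4 and 2 times before that of zrt1, and it was not in that window of adh1 or adh1AS. Within the first 1000 nt of adh1AS itself it stood 3 times. The motif is found before 6.16% of 5112 coding genes, and in the first 1000 nt of 7.26% of 6511 genes of at least that length. The matches are printed as 30 nt of the RefSeq reference genome, read 5' to 3' on the strand of the gene, with the match in capitals. A match is a description of the sequence and not a bound site. In the list below they are the adh4 match 672 nt upstream (I:158586-158615, minus strand), the zrt1 matches 477 nt (II:3606689-3606718, plus strand, motif on the opposite strand) and 194 nt upstream (II:3606972-3607001, plus strand), and the adh1AS matches 252 nt (III:1593713-1593742, minus strand), 441 nt (III:1593524-1593553, minus strand) and 679 nt inside (III:1593286-1593315, minus strand, motif on the opposite strand).
adh4, upstream: atcagcatcgaCGACGATCacgtcaaataa
zrt1, far upstream: tggttgtgacaGATCGACGtcaatctgcaa
zrt1, near upstream: ctattttcaagCGTCGATCcttaaaccttg
adh1AS, first inside: taaagattttcCGTCGATCattcgacatcg
adh1AS, second inside: cacggtttccaCGGCGATCcatgtcggaaa
adh1AS, last inside: gttggattaggGATCGTCGtacaaaatatc

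The cleavage sites that the results turn on are printed next, each as the 30 nt that end at the cleavage position, in the sense of the RNA. Capitals mark AATAAA, the canonical poly(A) signal, or a hexamer 1 base away from it, overlapping hits joined. Such a hexamer stood in this window at the most used site of 62.4% of 3971 genes, against 36.0% in a window 200 nt downstream, and AATAAA itself at 16.4% against 4.66%. Among the most used sites of the 4 RNAs, adh1AS carried AATAAA, adh1 and zrt1 carried a variant, and adh4 had neither. The sites are that of adh1 at its annotated end (III:1592860-1592889, plus strand) and a distal one (III:1593280-1593309, plus strand), those of adh1AS at its annotated end (III:1590025-1590054, minus strand), 577 nt before it (III:1590602-1590631, minus strand) and in the first part of the RNA (III:1593084-1593113, minus strand), that of adh4 (I:156378-156407, minus strand), and those of zrt1 at its annotated end (II:3609301-3609330, plus strand) and near the start codon (II:3607911-3607940, plus strand).
adh1, annotated end: AATCAAtgatattagaatcccatcctttaa
adh1, distal: agtaatgatattttgtacgacgatccctaa
adh1AS, annotated end: agtggagAATAAAagaatcattactaggta
adh1AS, 577 nt before the end: tcccttgtcccgatgctgttcttctcacca
adh1AS, early: catcatctAATATActcattcatttcttca
adh4, past the annotated end: atatatcaaattttggattttttttattaa
zrt1, annotated end: tttaAATAATAATtgtgtcattttcactga
zrt1, near the start codon: aactcatatAATCAAtatcttgctcaagaa

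The 4 libraries held 2702105 to 4488357 reads. Levels are reads per 1000000 nuclear reads (RPM) after TMM scaling of the library sizes, and brackets after a level give the exact 95% Poisson interval. Shares carry exact (Clopper-Pearson) 95% binomial intervals. All these intervals cover counting error only, since reads made by PCR without molecular identifiers are not independent molecules. With 1 library per group no test was possible, so a ratio compares 2 libraries and not 2 conditions, and medium or genotype cannot be told apart from the library. RNA from a whole culture also does not separate fewer expressing cells from less RNA per cell. As a check of the labels, pab2 stood at 59.4 RPM in wild type and 33.7 in the library labelled PAB2 mutant in rich medium. In minimal medium pcf11 stood at 31.9 RPM in wild type and 66.3 in the library labelled PCF11 mutant. The labels do not say what either mutation does to its RNA.

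Wild type in minimal medium was compared with wild type in rich medium, which asks how these RNAs stand in the 2 media. The library from minimal medium held far more of the transporter RNA zrt1, of adh4 and of the antisense RNA adh1AS, and far less adh1. For adh1 there were 702 reads in rich and 21 in minimal medium, or 191 (177 to 206) and 7.29 (4.51 to 11.1) RPM. For adh1AS there were 128 and 4962 reads, or 34.9 (29.1 to 41.5) and 1723 (1675 to 1771) RPM. The sense and antisense RNAs of 1 locus thus stood in opposite order in the 2 media, with no overlap of the counting intervals.

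For adh4 the libraries held 118 reads in rich and 3254 in minimal medium, or 32.1 (26.6 to 38.5) and 1130 (1091 to 1169) RPM. For zrt1 they held 492 and 3678 reads, or 134 (122 to 146) and 1277 (1236 to 1319) RPM. Both RNAs were higher in minimal medium, outside counting error.

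**Figure D1:**
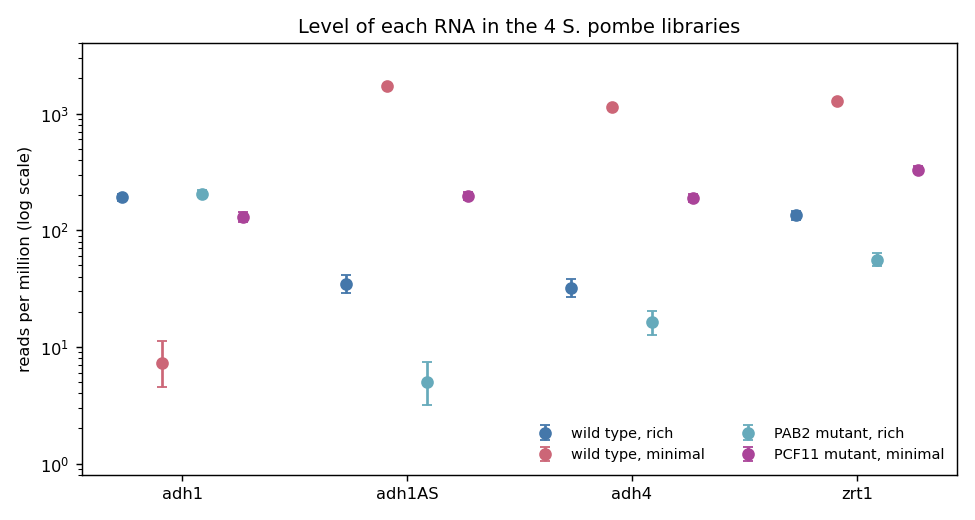
Level of adh1, adh1AS, adh4 and zrt1 in each of the 4 S. pombe libraries, in RPM on a log axis, with exact 95% Poisson intervals as bars (n = 1 library per point). The levels of adh1AS, adh4 and zrt1 are highest in wild type in minimal medium and lowest in the PAB2 mutant, while adh1 is lowest in wild type in minimal medium, at 7.29 RPM.

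As ratios of reads, adh1 was 26.2-fold lower in minimal medium (17.0 to 42.6), adh1AS 49.4-fold higher (41.5 to 59.4), adh4 35.1-fold higher (29.2 to 42.6) and zrt1 9.53-fold higher (8.67 to 10.5). On the log2 scale, with 1 read added to each count, the differences were -4.65, 5.62, 5.12 and 3.25. Among the 3479 genes that had 100 or more reads in this pair, the value of adh1 was the lowest, that of adh1AS the highest, that of adh4 the 2nd highest and that of zrt1 the 4th highest. The 3rd highest was SPCC794.04C, annotated as a transporter. All 4 members lay past 2-fold, against 4.86% of the 3479 genes (2.93% higher and 1.93% lower). The members were named with earlier results of these data known, and adh1 reached the minimum of 100 reads only through the rich medium library. The median log2 difference of the 4 was 4.19 and that of all genes -0.01.

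**Figure D2:**
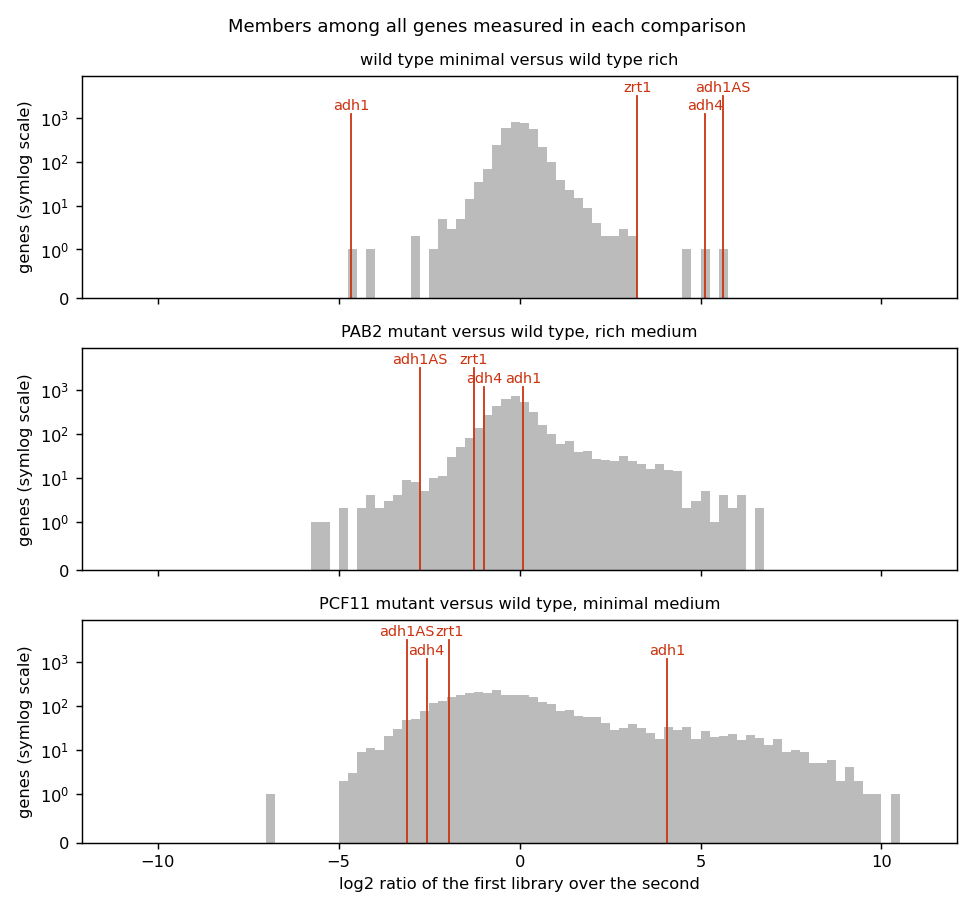
Distribution of log2 ratios over all genes that had 100 or more reads in each pair of libraries (grey bars, number of genes per 0.25 of log2, symlog axis), with the 4 members as red lines whose height has no meaning. In the upper panel the members sit at the edges (adh1 at -4.65, adh1AS at 5.62), and in the lower panels the grey distribution is wider and the members lie inside it.

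The pairing of less sense with more antisense was looked for in other coding genes. Over the gene and 500 nt past its end, adh1 had 702 sense and 98 antisense reads in rich medium and 21 and 208 in minimal medium. In rich medium 91 of the 98 antisense reads lay past the end of adh1 and 7 within it. In minimal medium 75 of the 208 lay within it, and the reads past the end may belong to SPCC13B11.02C. Of 1298 coding genes that had 100 or more reads on each strand in the pair, 0.077% had sense reads more than 2-fold lower and antisense reads more than 2-fold higher in minimal medium. That share is 1 gene, adh1 itself, with log2 differences of -4.65 and 1.43. Each strand of adh1 reached the minimum of 100 reads only through the library where it was higher, which favours this pairing.

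The antisense share of the adh1 locus, over the gene and 500 nt past its end, was 12.3% (10.1% to 14.7%) in wild type in rich medium and 90.8% (86.3% to 94.2%) in wild type in minimal medium. It was 0.314% (0.0648% to 0.914%) in the PAB2 mutant and 33.9% (30.1% to 37.8%) in the PCF11 mutant. The PAB2 mutant library was the lowest and wild type in minimal medium by far the highest. Coding genes with at least 100 reads had median antisense shares of 20.7%, 19.4%, 31.1% and 37.6% in the same order of libraries, and neighbouring genes on the other strand add to them. The adh1 value lay above 42.4%, 88.9%, 5.81% and 47.98% of those genes. Over the coding region alone the antisense share of the PCF11 mutant was 84.8%, from 162 of 191 reads, and that of wild type in minimal medium 95.8%, from 68 of 71 reads.

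Counting the whole of adh1AS against adh1, the antisense RNA made up 15.4% (13.03% to 18.1%) of the reads of the pair in wild type in rich medium and 99.6% (99.4% to 99.7%) in minimal medium. It made up 2.36% (1.4996% to 3.52%) in the PAB2 mutant and 60.5% (57.4% to 63.5%) in the PCF11 mutant. In both rich medium libraries adh1 was thus the more abundant read source of the pair, and in both minimal medium libraries adh1AS was.

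The place where reads of the adh1AS strand ended also differed between the media. Transcription of adh1AS first crosses 1094 nt before it meets adh1. In wild type in rich medium 91 of 128 adh1AS reads, 71.1% (62.4% to 78.8%), ended in that first stretch, 7 ended within adh1 and 30 ended beyond the start of adh1. In wild type in minimal medium 133 of 4962 reads, 2.68% (2.25% to 3.17%), ended in the first stretch, 75 within adh1 and 4754, or 95.8% (95.2% to 96.3%), beyond the start of adh1. Most ends on this strand in rich medium therefore lay short of adh1, and most of those in minimal medium lay past it.

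As levels, the early ends stood at 24.8 (19.96 to 30.4) RPM in rich and 46.2 (38.7 to 54.7) in minimal medium. The ends beyond adh1 stood at 8.17 (5.51 to 11.7) and 1650 (1604 to 1698) RPM. Each taken as a whole, both kinds of end were higher in minimal medium, and the gap was far wider for the ends beyond adh1. A pair of early sites carried most of the early reads. That at III:1593084 had 27 reads in rich and 94 in minimal medium, or 7.35 and 32.6 RPM. That at III:1592967 had 54 and 32, or 14.7 and 11.1 RPM, so it was not higher in minimal medium. These sites lie 318 and 435 nt past the end of SPCC13B11.02C, and all 91 and 133 early reads fall between its start codon and 500 nt past its end, so they cannot be told apart from 3' ends of that gene. No read ended inside the gene itself in any of the 4 libraries. With the early reads given to SPCC13B11.02C, a setting added after seeing the data, adh1AS had 37 reads in rich and 4829 in minimal medium, a log2 difference of 7.34, and made up 5.01% (3.55% to 6.84%) and 99.6% of the reads of the pair with adh1.

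**Figure D3:**
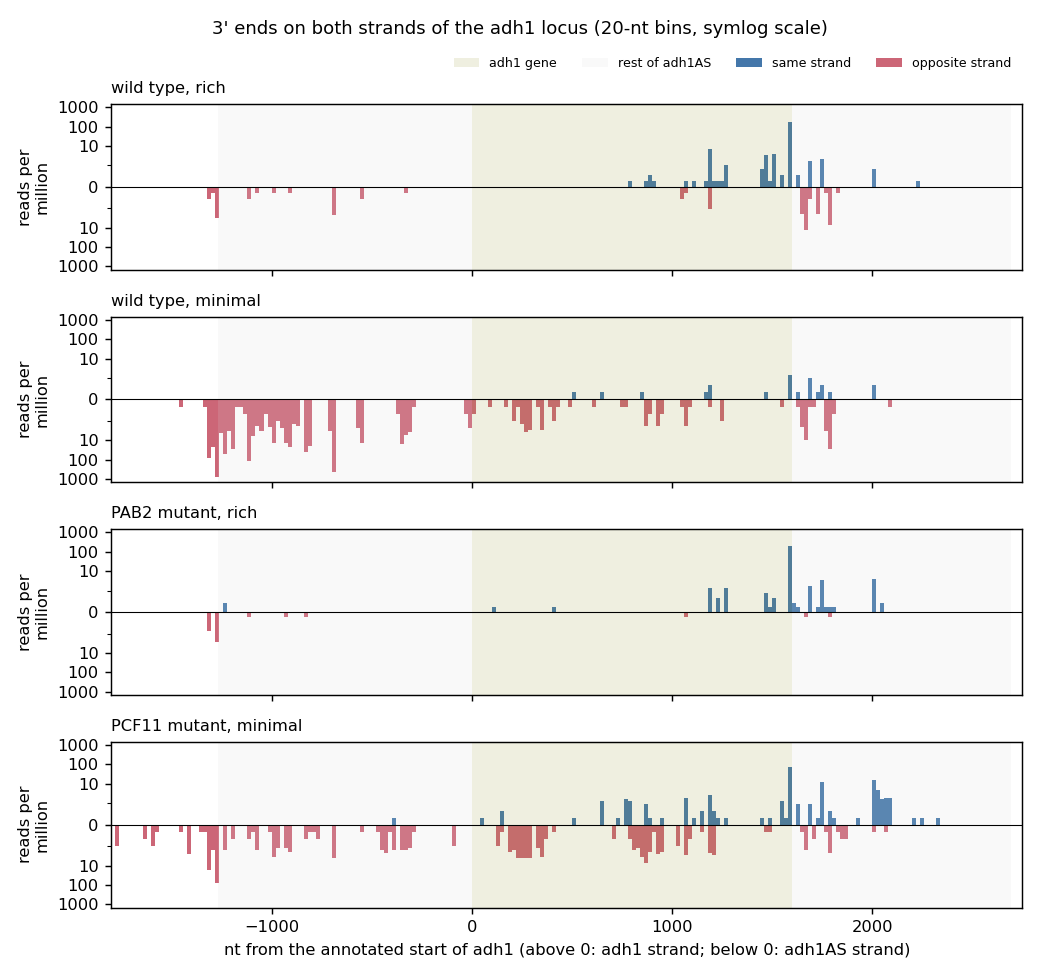
Levels of 3' ends, in RPM, along the adh1 locus in 20-nt bins (symlog axis), against distance in nt from the annotated start of adh1, with adh1-strand ends above 0 and adh1AS-strand ends below, 1 panel per library. The ends on the adh1AS strand in rich medium cluster just downstream of adh1, whereas in minimal medium they form a tall group to the left of adh1, and in the PCF11 mutant ends on both strands are spread through the gene.

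Beyond adh1, the most used adh1AS site was its annotated end, with 12, 2208, 13 and 236 reads in wild type rich, wild type minimal, PAB2 mutant and PCF11 mutant. In wild type in minimal medium it held 44.5% (43.1% to 45.9%) of adh1AS reads. The next site, 577 nt before the annotated end, held 1234 reads or 24.9% (23.7% to 26.1%) there. In the PCF11 mutant that site held 13 of 608 reads, 2.14% (1.14% to 3.63%), while the annotated end kept 38.8% (34.9% to 42.8%). In the PAB2 mutant it held 0 of 23 reads, which allows a share of up to 13.04% as 3 counts of the total, or 14.8% by the exact interval. The earlier of these sites is the one whose printed window has no hexamer near AATAAA, and the site at the annotated end has AATAAA. Other adh1AS sites without such a hexamer went both ways. In wild type minimal and the PCF11 mutant, III:1590188 held 6.91% and 0.822% of reads and III:1589985 4.90% and 8.88%. The shares at III:1591550 (0.403% and 5.26%) and III:1592153 (0.101% and 5.59%) were also higher in the mutant. A link between hexamer and share was not tested.

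The PAB2 mutant was compared with wild type in rich medium, which asks how these RNAs stand in a mutant of this nuclear poly(A)-binding protein. This comparison shares the wild type rich library with the medium comparison. In the PAB2 mutant library adh1AS and zrt1 were lower, adh4 was lower by just under 2-fold, and adh1 lay within 2-fold of wild type. The PAB2 mutant held 953 adh1 reads, a level of 206 (193 to 219) RPM, beside 191 (177 to 206) in wild type, so the counting intervals overlapped. It held 23 adh1AS reads or 4.97 (3.15 to 7.45) RPM, beside 34.9 in wild type.

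The remaining pair were also below wild type. For adh4 the PAB2 mutant held 75 reads or 16.2 (12.7 to 20.3) RPM beside 32.1, and for zrt1 259 reads or 55.9 (49.3 to 63.2) beside 134. Their intervals did not overlap those of wild type. The log2 differences from wild type were 0.11 for adh1, -2.76 for adh1AS, -0.98 for adh4 and -1.26 for zrt1. The median of all genes was -0.15 in this comparison, and relative to it they were 0.25, -2.61, -0.83 and -1.11. Of the 4 members 2, adh1AS and zrt1, lay past 2-fold, both lower, against 20.4% of 3954 genes (9.03% lower and 11.3% higher). The value of adh1AS was the 36th lowest of the 3954, that of zrt1 the 218th and that of adh4 the 374th, and adh1AS reached the minimum of 100 reads only through wild type.

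On the adh1AS strand the PAB2 mutant and wild type differed mainly in the early reads, which may be 3' ends of SPCC13B11.02C. The stretch before adh1 held 91 reads in wild type and 2 in the mutant, or 24.8 and 0.432 (0.0523 to 1.56) RPM. Beyond the start of adh1 the libraries held 30 and 20 reads, or 8.17 (5.51 to 11.7) and 4.32 (2.64 to 6.67) RPM, and those intervals overlapped. The share of early ends was 71.1% in wild type and 8.70% (1.07% to 28.0%) in the mutant. With the early reads given to SPCC13B11.02C, adh1AS held 37 reads in wild type and 21 in the mutant, or 10.1 (7.10 to 13.9) and 4.54 (2.81 to 6.93) RPM. It then fell under the minimum of 100 reads, with a log2 difference of -1.12, and 1 member, zrt1, lay past 2-fold.

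**Figure D4:**
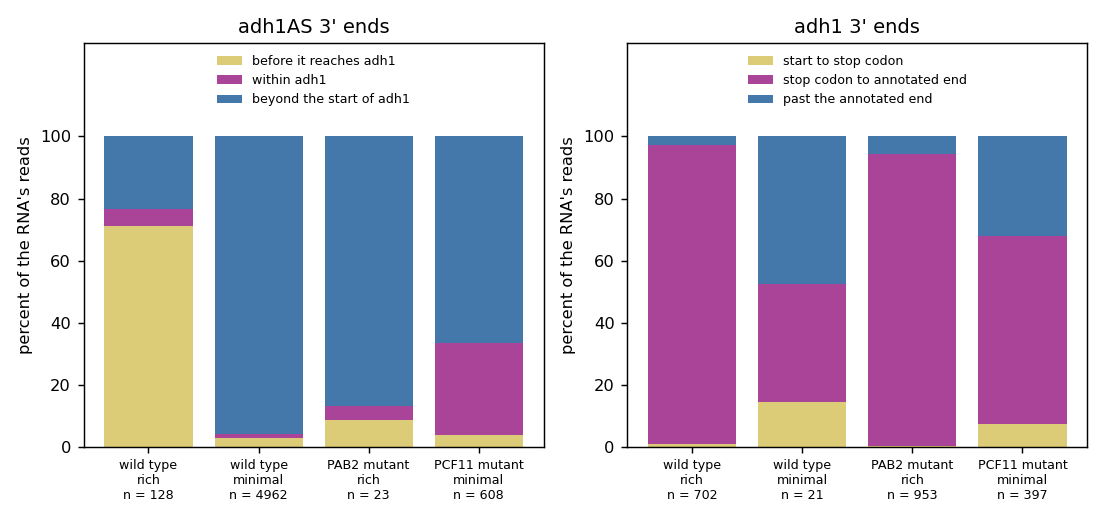
Share of the 3' ends of adh1AS (left) and adh1 (right) in 3 zones of each RNA, in percent of its reads in each library (1 library per bar, n is its reads). Early ends on the adh1AS strand, which may be those of SPCC13B11.02C, fill 71.1% of the bar in wild type in rich medium and under 10% of the others, and adh1 ends past the annotated gene end make up 32.0% in the PCF11 mutant.

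The PCF11 mutant was compared with wild type in minimal medium, which asks how they stand in a mutant of the cleavage machinery. This comparison shares the wild type minimal library with the medium comparison. In the PCF11 mutant library adh1 was higher, and adh1AS, adh4 and zrt1 were lower. It held 397 adh1 reads or 129 (117 to 142) RPM, beside 21 reads or 7.29 in wild type, a 17.7-fold difference (11.4 to 28.9). It held 608 adh1AS reads or 198 (182 to 214) RPM beside 1723, which is 8.71-fold lower (8.01 to 9.49).

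For adh4 the PCF11 mutant held 585 reads or 190 (175 to 206) RPM beside 1130, which is 5.94-fold lower. For zrt1 it held 1019 reads or 331 (311 to 352) RPM beside 1277, which is 3.85-fold lower. The log2 differences were 4.08 for adh1, -3.12 for adh1AS, -2.57 for adh4 and -1.95 for zrt1. Relative to the median of all genes, which was -0.41, they were 4.50, -2.71, -2.15 and -1.53. All 4 members lay past 2-fold, and so did 61.1% of 3525 genes (25.2% higher and 35.9% lower), so the count says little about these members. From the highest, adh1 ranked 337th, and from the lowest adh1AS ranked 111th, adh4 242nd and zrt1 548th. The adh1 gene reached 100 reads in this pair only through the mutant.

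The ends of adh1 and adh1AS were also placed differently in the PCF11 mutant. Ends of adh1AS within adh1 made up 29.8% (26.2% to 33.6%) of its reads in the mutant and 1.51% (1.19% to 1.89%) in wild type. As levels they stood at 58.9 (50.6 to 68.1) and 26.0 (20.5 to 32.6) RPM, so these ends were higher in the mutant while adh1AS as a whole was lower. Ends beyond the start of adh1 stood at 131 (119 to 145) and 1650 RPM, and early ends at 7.48 (4.74 to 11.2) and 46.2.

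On the sense strand, the annotated end of adh1 held 86.5% (83.7% to 88.9%) of adh1 reads in wild type in rich medium and 92.0% (90.1% to 93.7%) in the PAB2 mutant. It held 4 of only 21 reads in wild type in minimal medium and 55.7% (50.6% to 60.6%) in the PCF11 mutant. Ends past the annotated gene end made up 2.71% (1.64% to 4.19%) in wild type rich, 5.56% (4.19% to 7.21%) in the PAB2 mutant and 32.0% (27.4% to 36.8%) in the PCF11 mutant. In wild type in minimal medium they were 10 of 21 reads, a share with an interval of 25.7% to 70.2% that contains the PCF11 value. The distal site 420 nt past the annotated end held 3, 2, 19 and 61 reads in the order wild type rich, wild type minimal, PAB2 mutant and PCF11 mutant.

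The mean 3' end of adh1 lay 457 nt past the stop codon in wild type rich, 501 nt in wild type minimal (18 reads), 484 nt in the PAB2 library and 572 nt in the PCF11 library. The median over 3949 genes was 192, 196, 218 and 267 nt in the same order. The corresponding means of adh4 were 176, 170, 206 and 173 nt, and those of zrt1 209, 211, 207 and 215 nt. The PAB2 value of adh4 rested on 74 reads and on the window. Over the 67 reads that ended within 500 nt of the stop codon it was 171 nt. Among reads inside the window of each gene, the adh4 and zrt1 means of the PCF11 mutant thus lay within 10 nt of those of wild type in minimal medium. In that mutant library the median gene ended further downstream. Ends past the window do not enter these means. The noncoding RNA SPNCRNA.6199, which starts 151 nt downstream of zrt1 on its strand, held 44 reads in wild type minimal and 621 in the PCF11 mutant. Whether these reads come from longer zrt1 RNAs was not tested.

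The adh4 RNA ended almost wholly at 1 place. The site at I:156378, 170 nt past the stop codon and 52 nt past the annotated gene end, held 84.7% (77.0% to 90.7%) of its reads in wild type rich and 90.9% (89.9% to 91.9%) in wild type minimal. It held 85.3% (75.3% to 92.4%) in the PAB2 mutant and 95.0% (93.0% to 96.7%) in the PCF11 mutant. Between 98.1% and 99.2% of adh4 reads lay past the annotated gene end in each of the 4 libraries, so a count over the annotated gene alone would miss nearly all of them. A neighbouring site 27 nt further on held 16, 200, 3 and 17 reads in the order wild type rich, wild type minimal, PAB2 mutant and PCF11 mutant.

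On the strand opposite to adh4, the gene and the 500 nt past its end held 1 read in wild type rich, 1 in the PAB2 mutant and 40 in the PCF11 mutant. Wild type in minimal medium held 0 of 3275 reads there, which allows a share of up to 0.0916% as 3 counts of the total, or 0.113% by the exact interval. Inside the annotated gene the opposite strand held 1 read in the PCF11 mutant and 0 in the other 3 libraries. The 2 annotated noncoding RNAs opposite to adh4, SPNCRNA.2065 and SPNCRNA.2066, together held that 1 read over the 4 libraries. The convergent gene SPAC5H10.04 ends at I:155515, and the 500 nt past its end overlap the 500 nt past adh4. The 40 reads of the PCF11 mutant were not told apart from ends of that gene.

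The zrt1 RNA had 1 main end and a set of early ends near the start codon. The annotated gene end held 406 reads in wild type rich, 3228 in wild type minimal, 237 in the PAB2 mutant and 908 in the PCF11 mutant, or 82.5%, 87.8%, 91.5% and 89.1% of zrt1 reads. A 2nd site 73 nt further held 13, 185, 7 and 80 reads. The share of the main site was lower in wild type rich (78.9% to 85.8%) than in the PAB2 mutant (87.4% to 94.6%). These shares are of all zrt1 reads, early ends included. Of the ends past the stop codon alone, the main site held 406 of 438 in wild type rich and 237 of 258 in the PAB2 mutant. The share of the 2nd site was 2.64% (1.41% to 4.48%) in wild type rich, 5.03% (4.35% to 5.79%) in wild type minimal, 2.70% (1.09% to 5.49%) in the PAB2 mutant and 7.85% (6.27% to 9.68%) in the PCF11 mutant, highest in the last.

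The early zrt1 ends lay in the first 100 nt of the coding region, after an annotated 5' untranslated region of 713 nt. The data give 3' ends only, so the lengths of these RNAs were not measured. Wild type in rich medium had 48 such reads of 492, or 9.76% (7.28% to 12.7%), and wild type in minimal medium 101 of 3678, or 2.75% (2.24% to 3.33%). The PAB2 mutant had 1 of 259, or 0.386% (0.00977% to 2.13%), and the PCF11 mutant 1 of 1019, or 0.0981% (0.00248% to 0.546%). Early zrt1 ends were thus seen in both wild type libraries. They were nearly absent from both mutant libraries, each with an interval below that of the wild type in its medium.

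As levels, the early zrt1 ends stood at 13.1 (9.64 to 17.3) RPM in rich and 35.1 (28.6 to 42.6) in minimal medium. Ends past the stop codon stood at 119 (108 to 131) and 1235 (1195 to 1277). In the mutants the early ends stood at 0.216 (PAB2) and 0.325 (PCF11) RPM. The main early end, at II:3607940, held 38, 80, 1 and 0 reads in the order wild type rich, wild type minimal, PAB2 mutant and PCF11 mutant. The 0 of 1019 allows a share of up to 0.294% as 3 counts of the total, or 0.361% by the exact interval. The printed window of this end carries AATCAA, the hexamer that also precedes the main adh1 end.

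Such early ends were rare among genes. In wild type rich the median share over 2368 coding genes with at least 100 reads was 0, and 24 genes, or 1.01%, were at or above the zrt1 value. In wild type minimal 2.49% of 2088 genes were at or above it. Of genes with at least 100 reads, 5.03% had 1% or more early ends in wild type rich and 4.97% in the PAB2 mutant, and 4.60% did in wild type minimal and 7.35% in the PCF11 mutant. Among 65 genes with 2% or more in wild type rich, 28, zrt1 included, had under 1% in the PAB2 mutant. Among 31 such genes in wild type minimal, 15, zrt1 included, had under 1% in the PCF11 mutant. These counts took genes with at least 100 reads in each library of the pair. With a cut of 5% in wild type, 11 of 35 genes in rich and 5 of 14 in minimal medium had under 1% in the mutant. These genes were picked for a high share in wild type, which favours a lower share in the mutant, and the reverse count was not made. A share under 1% in the mutant was thus seen in other genes too, and no more is drawn from these counts.

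**Figure D5:**
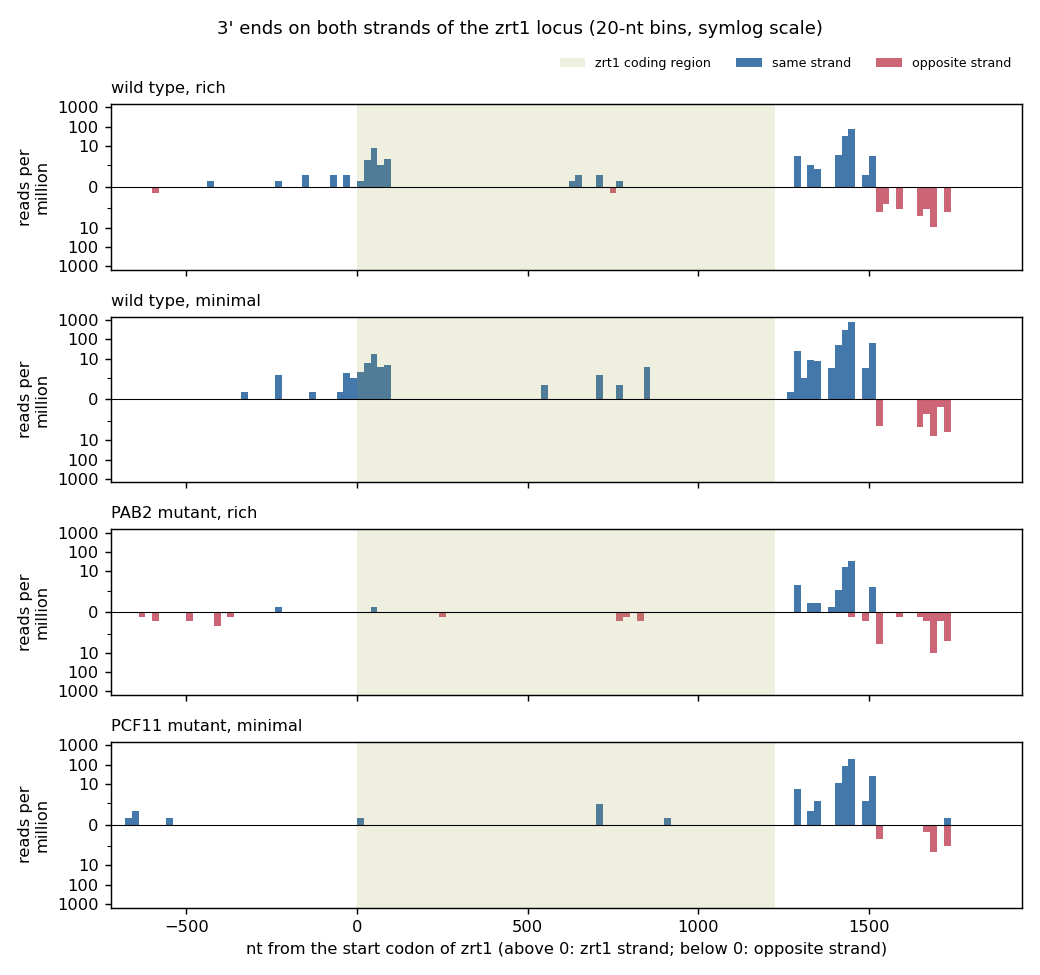
Levels of 3' ends, in RPM, along zrt1 in 20-nt bins (symlog axis), against distance in nt from the start codon, with zrt1-strand ends above 0 and the opposite strand below, 1 panel per library. The cluster of ends just inside the coding region is present in both wild type panels and reduced to 1 read in each mutant panel, and the ends below 0 at the right include those of the convergent gene sir2.

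On the strand opposite to zrt1, reads past its end were shared with sir2, the gene of a histone deacetylase, which runs toward zrt1 and overlaps its 3' end. The opposite strand over zrt1 and 500 nt past its end held 68 reads in wild type rich, 42 in wild type minimal, 99 in the PAB2 mutant and 12 in the PCF11 mutant. Within the annotated zrt1 gene it held 2, 0, 15 and 0. Downstream of zrt1 on its own strand, the noncoding RNA SPNCRNA.6199 held 25, 44, 26 and 621 reads in the same order, with the PCF11 mutant far above the other 3 libraries. The noncoding RNA SPNCRNA.1622, which overlaps the start of zrt1 from the other strand, held 15, 66, 13 and 7 reads, with the most in wild type in minimal medium.

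Across the 4 libraries adh1AS, adh4 and zrt1 followed 1 order: wild type minimal, PCF11 mutant, wild type rich and then the PAB2 mutant. No neighbours in that order had overlapping counting intervals for any of these RNAs. For adh1 the order was the PAB2 mutant and wild type rich, whose intervals overlapped, then the PCF11 mutant and last wild type minimal. Likeness of pattern was measured as the distance between log2 levels, each centred on its mean over the 4 libraries, among 5200 genes. The gene nearest to adh1AS was adh4, at a distance of 1.72, and zrt1 was its 4th nearest, with gld1 (glycerol dehydrogenase) and wwm3 between them. Nearest to adh4 were SPCC794.04C at 1.47, zrt1 at 1.504, adh1AS, ght5 (a high-affinity glucose transporter) and inv1 (external invertase).

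Nearest to zrt1 were inv1 at 0.92, ght5 at 0.93, SPNCRNA.1223, gcv2 (a glycine cleavage subunit) and gcd1, annotated as a glucose-6-phosphate 1-dehydrogenase. Nearest to adh1 were SPCP20C8.02C at 1.58 and 4 noncoding RNAs, SPNCRNA.644, SPNCRNA.687, SPNCRNA.4454 and SPNCRNA.3030. The distance from adh1 to adh1AS was 9.78, rank 5199 of 5200. These distances rest on 4 libraries and describe them only.

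Of 12 genes of zinc homeostasis that were listed, members included, 11 were found by name and 7 had at least 100 reads in the wild type pair. Of these, 5 were more than 2-fold higher in minimal medium and 0 lower, against 2.93% and 1.93% of all genes, with the 3 members among the 5. Without the members, 2 of 4 were higher: gcd1, with 44 reads in rich and 219 in minimal medium and a log2 difference of 2.64, and loz1, the repressor itself, with 44 and 132 reads and 1.91. Both reached the minimum of 100 reads only through the minimal medium library, which favours a higher call. The transporter genes zhf1 and cis4, whose products move zinc from the cytosol into internal compartments, had log2 differences of -0.27 and -0.32. The median log2 difference of these 4 genes was 0.82, against -0.01 for all genes. Below the read minimum, the metallothionein gene zym1 held 53 reads in rich and 11 in minimal medium, and SPBC1348.06C held 0 and 22.

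In the PAB2 mutant 6 genes of the zinc list were measured, with 0 higher and 3 lower, namely adh1AS, zrt1 and cis4 (log2 -1.23), against 11.3% and 9.03% of all genes. In the PCF11 mutant 6 were measured, with 0 higher and 5 lower, against 25.2% and 35.9% of all genes. The non-members among these 5 were loz1, with 132 reads in wild type and 41 in the mutant (log2 -1.76), and zhf1, with 1433 and 740 (log2 -1.05). The value of gcd1 was -0.53, near the median of all genes.

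Of 14 alcohol and aldehyde dehydrogenases and pyruvate decarboxylases, 7 were measured in the wild type pair, with 3 more than 2-fold higher in minimal medium and 2 lower, against 2.93% and 1.93% of all genes. Beside adh4, these were gld1 (log2 1.92) and the aldehyde dehydrogenase gene atd1 (1.51) on the higher side. Beside adh1, the formaldehyde dehydrogenase gene fmd1 was lower, with 209 reads in rich and 45 in minimal medium (log2 -1.84). The gene pdc101, for pyruvate decarboxylase, the step before alcohol dehydrogenase in fermentation, had a log2 difference of -0.47. In the PAB2 mutant 1 of 6 measured was higher, atd1 (log2 1.34), and 0 were lower, against 11.3% and 9.03% of all genes. Below the read minimum, and so not called, gld1 held 60 reads in wild type rich and 5 in the PAB2 mutant. Other genes of the list under that minimum went both ways. In the PCF11 mutant 2 of 7 were higher, adh1 and fmd1 (log2 1.11), and 2 were lower, adh4 and gld1 (log2 -1.46), close to the 25.2% and 35.9% of all genes. In the wild type pair and in the PCF11 pair alike, adh1, fmd1 and gld1 reached the minimum only through the library where they were higher.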

How the data were processed

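The deposited files hold counts, 1 row for each cleavage position and strand, unscaled and without a header. The library method amplifies the 3' end of polyadenylated RNA, per the labels' protocols. Alignment was done with Bowtie2 (version not given) and the assembly is ASM294v2, per the submitters' processing notes. How reads with several matches were placed is not given in the sources used here. The next base was A at 0.790% of 29740 positions with at least 20 reads, against 30.7% of bases 8 nt downstream, so positions were read as 1-based cleavage positions on that assembly. Whether this low share of A came from a filter or from how positions were placed was not tested. Each printed cleavage window ends in A. Cleavage at such a position cannot be told apart from cleavage just before its last A bases, so exact positions are uncertain by those bases.

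Each read was given by strand to the coding gene from its start codon to 500 nt past its annotated end, and noncoding RNAs took reads left over. The coding gene SPCC13B11.02C, nested in adh1AS on its strand, was the exception and held no reads, so reads in its window were counted with adh1AS. Reads opposite to a gene were taken over the annotated gene and the same 500 nt. Library sizes were nuclear reads times TMM factors (edgeR 4.0.16, R 4.3.3), and log2 ratios used reads plus 1 in genes that had 100 or more reads in a pair. Positions within 24 nt were joined into sites, and sites with at least 5% of a gene's reads over all libraries or in 1 library were kept. The ratio step was checked on simulated counts with known changes. DESeq2 1.42.0 size factors were an alternative. The genes named are the 4 members, the 5 nearest to each in pattern, neighbours within 1000 nt, at most 4 genes per list, and pab2 and pcf11. SPBC1348.06C, zym1 and SPCC794.04C were named after their values were seen, as were the zones of adh1AS and of early zrt1 ends. The members and lists were chosen with earlier results of these data known. The 4 S. cerevisiae libraries were not used.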

Additional observations from a re-analysis of the deposited data

How the results depend on the processing

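Each result was recomputed with other settings, namely no TMM factors, DESeq2 size factors, a window of 200 nt, the annotated gene alone, 5 reads added, and a minimum of 20 reads. No log2 ratio of a member changed direction. The number of members past 2-fold was 3 or 4 in minimal against rich medium, 2 or 3 in the PAB2 comparison, where adh4 passes with the 200 nt window, and 3 or 4 in the PCF11 comparison. The 3 arise with the annotated gene alone, which leaves adh4 under the read minimum. With the reads of its window given to SPCC13B11.02C, added after seeing the data, 1 member lay past 2-fold in the PAB2 comparison, since adh1AS fell under the read minimum, and the log2 ratio of adh1AS between media was 7.34 instead of 5.62. The log2 ratio of adh1 ranged from -5.46 to -4.42 between media and from 3.84 to 4.80 in the PCF11 comparison. The share of all genes past 2-fold ranged from 4.54% to 9.31%, 19.4% to 31.6% and 57.7% to 64.7% in the 3 comparisons. The antisense share of adh1 depended on the window. Over the annotated gene it was 1.01% in wild type rich and 40.04% in the PCF11 mutant. From start to stop codon it was 30% in wild type rich (3 of 10 reads), 95.8% in wild type minimal, 33.3% in the PAB2 mutant (1 of 3 reads) and 84.8% in the PCF11 mutant. No paired analysis was possible because each S. pombe group holds 1 library, and for the same reason no library could be left out. The 21 reads of adh1 in wild type minimal and the 23 of adh1AS in the PAB2 mutant limit what can be said of their ends.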
